A study of Mus musculus with 16 samples.

Results

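The sites described here are 416 places in the mouse genome where Oct4 was found at day 5 and again at day 7 of reprogramming, but not at day 1. They are called late kept sites below. They came from chromatin immunoprecipitation with sequencing (ChIP-seq) of OG2 MEFs, embryonic mouse fibroblasts in which the Oct4 promoter drives a GFP transgene. Retroviruses delivered Sox2, Klf4 (SK) and 1 POU factor to the cells of every group, and days were counted from the switch into iCD1, a chemically defined reprogramming medium. The 3 libraries that chose the sites were Oct4 ChIP of Oct4-SK cells at days 1, 5 and 7. The other 10 libraries with a summit list were Oct4 ChIP of Oct4defSox2-SK cells at days 1 and 5, Oct4 ChIP of Oct4 S151M-SK cells at day 1, Oct6 ChIP of Oct6 M151S-SK cells at day 1, and Sox2 ChIP of Oct4-SK, of Oct6-SK and of Oct4defSox2-SK cells, each at days 1 and 5. Each group of antibody, cocktail and day had 1 library, so nothing below has a replicate error. The cells were profiled in bulk, and binding in more cells cannot be told apart from stronger binding in each cell.

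Oct4 is a POU-family transcription factor with a pair of DNA-binding domains joined by a linker. On the composite SoxOct element it binds side by side with Sox2, a partnership known from enhancers of pluripotent stem cells. On the palindromic MORE element it binds as a homodimer, and on the octamer it can bind as a monomer. Oct4defSox2 is an Oct4 with substitutions at the surface that touches Sox2, made to disturb this heterodimer. Oct4 S151M carries the residue of Oct6 at a position that affects homodimers on MORE, and Oct6 M151S carries the residue of Oct4 there.

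The sites were chosen by the presence or absence of Oct4 summits, the positions where a called peak is highest. Summits of the 3 days were merged when the next lay within 100 bp, which gave 13115 merged sites on chromosomes 1 to 19, X and Y. Of these, 416 had summits of days 5 and 7 and none of day 1. The classes most like them were 818 sites with summits on all 3 days, 2410 with a summit at day 5 only and 2113 at day 7 only. The 3 lists held 8216, 4854 and 3638 summits. At 415 of the 416 sites 1 summit of each day was merged. Just inside the rule, the nearest day 1 summit lay 111 bp from the centre of a site in Ankrd6, with scores of 29.9 at day 5 and 20.5 at day 7, and 116 bp from a site nearest to Zbtb20. The widest merged gap between the summits of the 2 late days was 99 bp, nearest to Irx1. Just outside it, the closest pairs of a day 5 only and a day 7 only site lay 102 bp apart. A day 1 summit lay within 1 kb of the centre at 18 late kept sites and within 10 kb at 46. The median distance was 92073 bp. It was 79010 bp for day 5 only and 84157 bp for day 7 only sites, which also lack a day 1 summit by definition.

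Sequences around the matches at named sites show the elements that these sites shared. Each line gives the gene with the nearest coding start and the position on mm10, read 5′ to 3′ on the strand named, with the motif match in capitals and 15 bases to each side. The first 8 hold SoxOct and the last 5 hold MORE.
Ebf1, chr11:44841867-44841911, plus strand, 0 mismatches: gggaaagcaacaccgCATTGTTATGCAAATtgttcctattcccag
Ebf1, chr11:44864135-44864179, minus strand, 1 mismatch: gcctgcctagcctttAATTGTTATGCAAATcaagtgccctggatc
Cbr4, chr8:61517199-61517243, minus strand, 1 mismatch: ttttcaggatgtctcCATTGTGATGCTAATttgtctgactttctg
Sox2, chr3:34654034-34654078, plus strand, 1 mismatch: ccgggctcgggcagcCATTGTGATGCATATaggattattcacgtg
Dppa3, chr6:122624666-122624710, minus strand, 1 mismatch: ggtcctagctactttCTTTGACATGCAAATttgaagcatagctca
Fam209, chr2:172499014-172499058, minus strand, 2 mismatches: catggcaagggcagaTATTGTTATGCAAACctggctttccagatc
Supt6, chr11:78247908-78247952, plus strand, 2 mismatches: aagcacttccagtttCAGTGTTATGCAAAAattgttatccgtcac
Jarid2, chr13:44705653-44705697, minus strand, 2 mismatches: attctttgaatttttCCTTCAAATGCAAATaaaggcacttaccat
Cpeb4, chr11:31847334-31847375, plus strand, 0 mismatches: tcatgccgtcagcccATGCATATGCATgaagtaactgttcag
Zfp36l1, chr12:79895776-79895817, plus strand, 0 mismatches: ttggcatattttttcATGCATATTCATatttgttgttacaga
Cdh5, chr8:104093504-104093545, plus strand, 0 mismatches: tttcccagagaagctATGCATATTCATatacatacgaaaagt
Atf1, chr15:100248800-100248841, plus strand, 1 mismatch: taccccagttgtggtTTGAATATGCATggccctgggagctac
Ankrd6, chr4:32941094-32941135, plus strand, 1 mismatch: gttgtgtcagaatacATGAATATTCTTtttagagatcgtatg

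In the SoxOct lines the left part of the capitals is aligned to the Sox consensus and the right part, ATGCAAAT at its best, to the octamer. The likeness to Sox is weakest in the Jarid2 line, where every mismatch lies in the left part and the octamer is exact. Of these 8 sites only that nearest to Cbr4 had a Sox2 summit in any of the 6 Sox2 libraries. In the MORE lines the capitals read nearly the same on both strands. No window of 100 bp to each side of these 13 sites' centres overlapped an annotated exon.

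Late kept sites were rich in SoxOct elements. A window of 100 bp to each side of the centre held a SoxOct match, with up to 2 mismatches on either strand, at 176 of 416 sites (42.3%, Wilson 95% interval 37.7 to 47.1), where 17.6% of all merged sites did. In windows 2 kb to either side of the late kept sites the share was 0.962%. The late kept share was higher than that of day 5 only sites by 30.4 percentage points (Newcombe 95% interval 25.6 to 35.4), which ran from 11.8 with stricter to 41.7 with looser matching, and than that of day 7 only sites by 14.1 points (9.05 to 19.3). The latter difference fell to 1.67 points (−5.30 to 8.74) when only summits with a score of at least 10 were kept, and was 7.32 points (4.08 to 11.1) with stricter matching. Against sites of all 3 days, with 36.9%, the difference of 5.39 points (−0.35 to 11.2) was within counting error. Such intervals express the counting error over sites alone, and they compare libraries rather than conditions.

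MORE elements, here the 12-base form or the 13-base MORE+1 with up to 1 mismatch, were about as frequent at late kept sites as at all merged sites. They were found at 37 sites (8.89%, 6.52 to 12.0), 31 of them the 12-base form, against 9.10% of all merged sites and 0.601% of windows 2 kb away. The share differed by −7.85 points (−11.5 to −3.91) from the 16.7% of sites of all 3 days, by 0.0976 points (−2.56 to 3.40) from that of day 5 only sites, and by 4.78 points (2.23 to 7.99) from the 4.12% of day 7 only sites. With stricter matching the difference from sites of all 3 days was −0.677 points (−2.88 to 1.94). With a score of at least 10 the difference from day 5 only sites was −7.52 points (−11.9 to −2.29). The octamer ATGCAAAT was found without mismatch at 66 sites (15.9%, 12.7 to 19.7), against 9.26% of all merged sites. From the 14.1% of sites of all 3 days this differed by 1.81 points, within counting error (−2.28 to 6.22). It differed by 8.02 points (4.63 to 12.0) from day 5 only sites and by 3.18 points (−0.343 to 7.235) from day 7 only sites. At 47 of these 66 a SoxOct match was present too, as the POU part of SoxOct can be an octamer. No match to any of these POU elements was found at 191 late kept sites (45.9%, 41.2 to 50.7), against 69.4% of all merged sites, 43.8% of sites of all 3 days, 75.6% of day 5 only sites and 63.6% of day 7 only sites. These shares depend on the number of mismatches allowed. With 1 mismatch fewer or more where an element allows any, the late kept share was 14.2% or 73.6% for SoxOct, 3.85% or 24.8% for MORE and 74.3% or 16.8% for no POU element.

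The matches lay near the summits. The middle of the SoxOct match was a median of 17 bp from the site's centre and within 25 bp at 125 of the 176 sites (71.0%), and 88 matches were on each strand. For MORE the median was 12.5 bp and 27 of 37 (73.0%) lay within 25 bp. Of the SoxOct matches 12 had no mismatch, 47 had 1 and 117 had 2. Over 169 of the matches, 152 different forms were seen, the commonest being TTTTGTTATGCTAAT at 4 sites, and CATTGTTATGCAAAT, that of an Ebf1 site above, at 3.

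Of the other elements searched, single Sox strings (CCATTGT or CCTTTGT) were found at 17.1% (13.8 to 20.98) of late kept sites, against 16.0% of all merged sites and 7.33% of windows 2 kb away. From the 22.6% of sites of all 3 days this differed by −5.55 points (−10.01 to −0.775), and the differences from day 5 only and day 7 only sites were within counting error. The AP-1 string TGACTCA, bound by Fos and Jun factors that are active in fibroblasts, was found at 9.86% (7.35 to 13.1), near the 10.8% of all merged sites and within counting error of the 12.3% of sites of all 3 days. It differed by −4.42 points (−7.32 to −0.910) from day 5 only sites and by 4.74 points (2.04 to 8.10) from day 7 only sites. The TEAD string ACATTCC was found at 21 sites (5.05%, against 4.68% of all merged sites), KLF strings (GGGCGTGGC or GGGTGTGGC) at 7 (1.68%, against 0.884%) and the ESRRB string TCAAGGTCA at 2 (0.481%, against 0.343%). None of these 3 differed past counting error from any of the 3 classes compared. The median GC content of the windows was 43.8%, beside 43.3% for day 5 only sites, 41.8% for sites of all 3 days and for day 7 only sites, and 39.8% for all merged sites. Late kept centres fell on soft-masked, repeat-derived or low-complexity sequence at 12.98% (10.1 to 16.6), beside 17.5%, 18.8% and 19.4% in the classes of all 3 days, day 5 only and day 7 only, and each of these differences was past counting error.

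**Figure D1:**
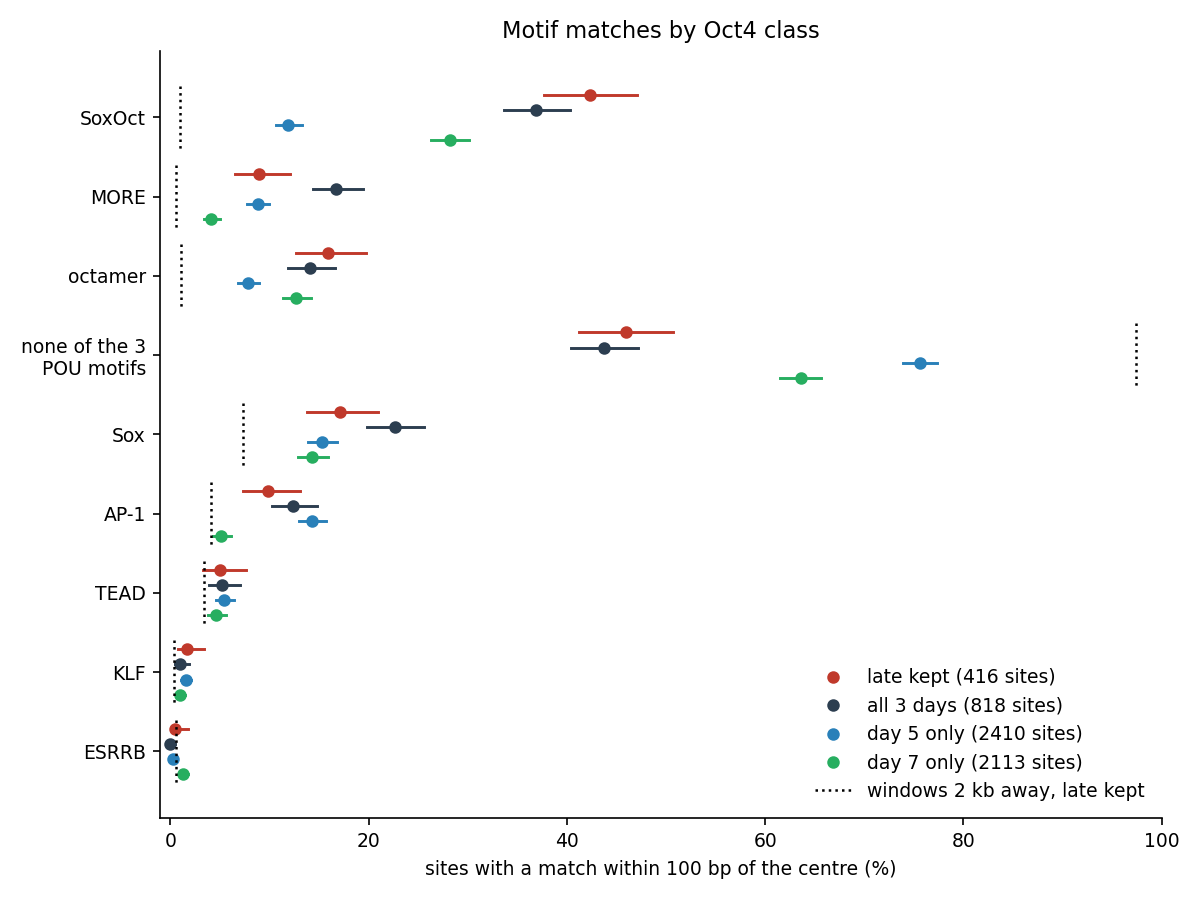
Share of sites (%) with a motif match within 100 bp of the centre, for the late kept sites and the 3 classes compared; points are shares, lines are Wilson 95% intervals and dotted marks are the windows 2 kb away from late kept sites. The late kept SoxOct share of 42.3% lies above those of day 5 only and day 7 only sites, and its MORE share of 8.89% lies below that of sites of all 3 days.

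The score of a summit is the deposited −log10 p-value of the peak caller, MACS2, and is comparable only within a library. It chose the sites only by being past the calling threshold and is given as a description. Scores of late kept sites ran from 4.14 to 139.6 at day 5, with a median of 11.1, and from 4.47 to 95.01 at day 7, with a median of 12.7. In the day 5 list the median late kept site stood at percentile 63.0, between the day 5 only sites at 32.8 and the sites of all 3 days at 83.9. In the day 7 list it stood at percentile 67.9, between 37.1 for day 7 only and 76.1 for all 3 days. Below the median score of the whole list stood 137 of the 416 sites at day 5 and 122 at day 7. The scores of the 2 days were weakly related across the 416 sites (Spearman's rho 0.217, as a description, since both scores are read at the same positions). The score was higher at day 7 than at day 5 at 240 of all 416 sites, at 110 of 172 sites with SoxOct and no MORE, at 14 of 33 with MORE and no SoxOct and at 107 of 191 with no POU element. The median score was 11.1 at day 5 and 15.1 at day 7 for SoxOct sites, and 12.8 and 14.4 for MORE sites. These are scores of 2 libraries that were not scaled to each other. Reads were shorter at day 7, so day and read length cannot be told apart there.

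**Figure D2:**
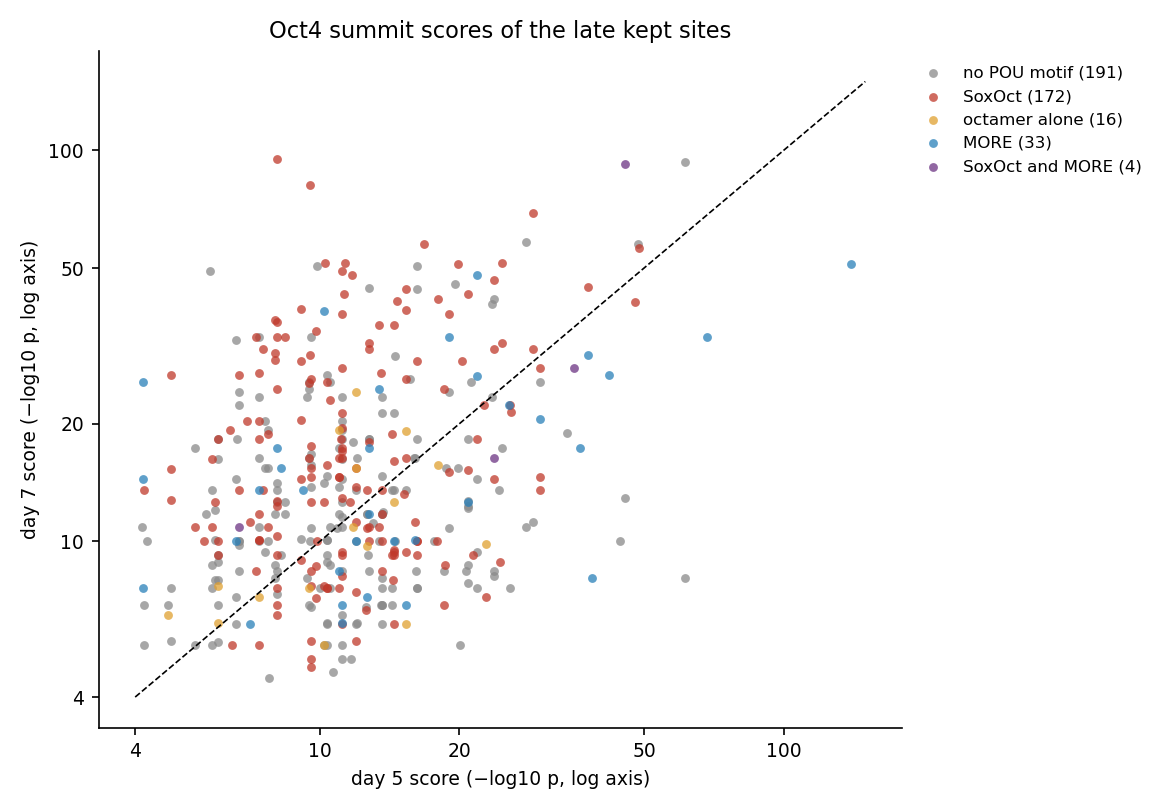
Day 5 against day 7 score (−log10 p, both axes logarithmic) of the 416 late kept sites, 1 point per site, coloured by motif, with the line of equal scores dashed. Above the line lie 240 of all 416 sites and 110 of the 172 with SoxOct, and the highest day 5 score, 139.6, belongs to a MORE site nearest to Cpeb4.

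Most late kept sites had a summit of a mutant Oct4 at day 1, when wild-type Oct4 had none there by the rule, and so did most of the 13115 merged sites as a whole. Occupancy in one of the 10 lists means a summit of that list at most 100 bp from the site's centre. Oct4 S151M occupied 300 of the 416 at day 1 (72.1%, 67.6 to 76.2), against 63.0% of all merged sites. Oct4defSox2 occupied 236 at day 1 (56.7%, 51.9 to 61.4), against 46.6% of all merged sites. One or both mutants were present at 342 late kept sites (82.2%, 78.2 to 85.6), against 71.0% of all merged sites, and neither at 74. The share with 1 or both was 98.8% at sites of all 3 days, 50.5% at day 5 only sites and 35.2% at day 7 only sites. Both mutants were present at 194 late kept sites (46.6%), against 38.6% of all merged sites. The lists of the mutants were far longer, with 101170 and 31070 summits against 8216 for Oct4 at day 1, and the part of list length in these shares was not tested beyond the alternative below.

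Late kept sites stood between the other classes in this respect. Oct4defSox2 occupancy at day 1 differed by −30.3 points (−35.6 to −25.02) from that at sites of all 3 days. It was 25.2 points (20.04 to 30.2) higher than at day 5 only sites and 37.5 points (32.4 to 42.5) higher than at day 7 only sites. Oct4 S151M occupancy differed by −24.6 points (−29.2 to −20.2) from that at sites of all 3 days. It was 33.0 points (28.1 to 37.6) higher than at day 5 only sites and 43.5 points (38.6 to 48.0) higher than at day 7 only sites. When each of the 10 lists was cut to its 1038 strongest summits, the late kept shares fell to 4.81% for Oct4defSox2 at day 1 and 0.721% for Oct4 S151M. The excess over day 5 only sites was then 2.15 points (0.329 to 4.72) for Oct4defSox2 and −0.731 points (−1.47 to 0.705) for Oct4 S151M, and the Oct4 S151M difference from sites of all 3 days −11.7 points (−14.2 to −9.25). With a score of at least 10 the excess over day 5 only sites was 11.6 points (4.44 to 18.5) for Oct4defSox2 and 13.9 points (7.36 to 19.8) for Oct4 S151M.

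**Figure D3:**
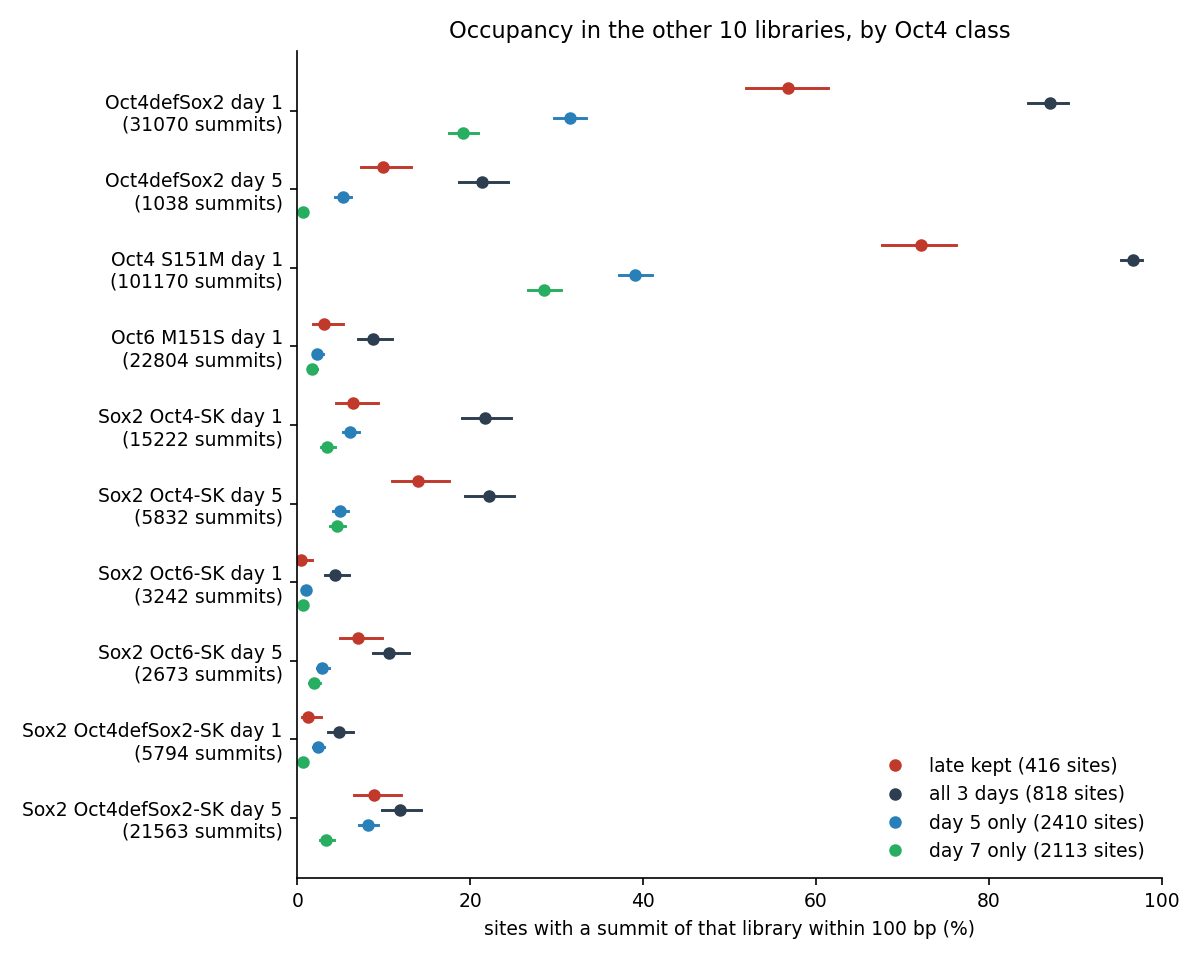
Share of sites (%) with a summit of each of the other 10 libraries within 100 bp, by Oct4 class, with the number of summits in each list; points are shares and lines are Wilson 95% intervals. Late kept sites lie below the sites of all 3 days and above the day 5 only and day 7 only sites for both mutants at day 1 and for Sox2 in Oct4-SK cells at day 5.

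Where a mutant was present, its summits at late kept sites ranked above the middle of its own list. The median score of Oct4defSox2 at day 1 was 20.2 over the 236 sites, beside 11.2 over its whole list, and that of Oct4 S151M was 27.7 beside 19.5. The fold enrichment of Oct4 S151M over local background, a ratio in its deposited peak table, had a median of 8.24 over the 300 sites and of 7.32 over all its peaks. It was 34.3 at 32 MORE sites, 7.72 at 132 SoxOct sites and 7.31 at 120 sites with no POU element. The 74 late kept sites with neither mutant at day 1 held SoxOct at 28 (37.8%), beside 43.3% of the other 342, a difference within counting error (5.44 points, −7.06 to 16.9). They held no MORE at all, beside 10.8% of the other 342, and no POU element at 60.8%, beside 42.7% of the other 342 (those with a mutant minus those with neither, −18.1 points, −29.7 to −5.56).

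At day 5 Oct4defSox2 was found far more often at MORE sites than at SoxOct sites. It occupied 41 of the 416 late kept sites at day 5 (9.86%, 7.35 to 13.1), against 4.46% of all merged sites, where its list held 1038 summits. Of late kept sites with MORE and no SoxOct it occupied 14 of 33 (42.4%, 27.2 to 59.2), and of those with SoxOct and no MORE 3 of 172 (1.74%, 0.595 to 5.00). The difference was 40.7 points (25.1 to 57.5), and it lay between 29.3 and 51.6 points in the alternatives tried. At day 1 the same mutant had occupied 22 of the 33 (66.7%) and 99 of the 172 (57.6%), a difference of 9.11 points (−9.39 to 24.6). With each list cut to 1038 summits this day 1 difference was 15.3 points (5.01 to 31.6). Of the sites it occupied at day 1, 12 of 22 with MORE, 3 of 99 with SoxOct and 15 of 99 with no POU element were occupied at day 5. The contrast was not particular to late kept sites: among sites of all 3 days the day 5 difference between MORE and SoxOct was 55.4 points (45.9 to 63.8), with 63.7% and 8.30% occupied. Wild-type Oct4 had a day 5 summit at all of these sites because the rule required it.

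Oct4 S151M was also found more often at MORE, with 32 of 33 MORE sites, 132 of 172 SoxOct sites and 120 of 191 sites with no POU element occupied. The MORE share was 20.2 points (6.68 to 27.5) above the SoxOct share, with 34.2 points at a sharing distance of 50 bp and 9.09 points with equal list lengths, and the SoxOct share was 13.9 points (4.44 to 23.0) above that of sites with no POU element. The 16 sites with an octamer alone had an Oct4defSox2 summit at 13 at day 1 (81.25%, 57.0 to 93.4) and at 6 at day 5 (37.5%, 18.5 to 61.4). The day 5 share of MORE sites was 42.4%, so day 5 occupancy by this mutant was not particular to MORE.

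**Figure D4:**
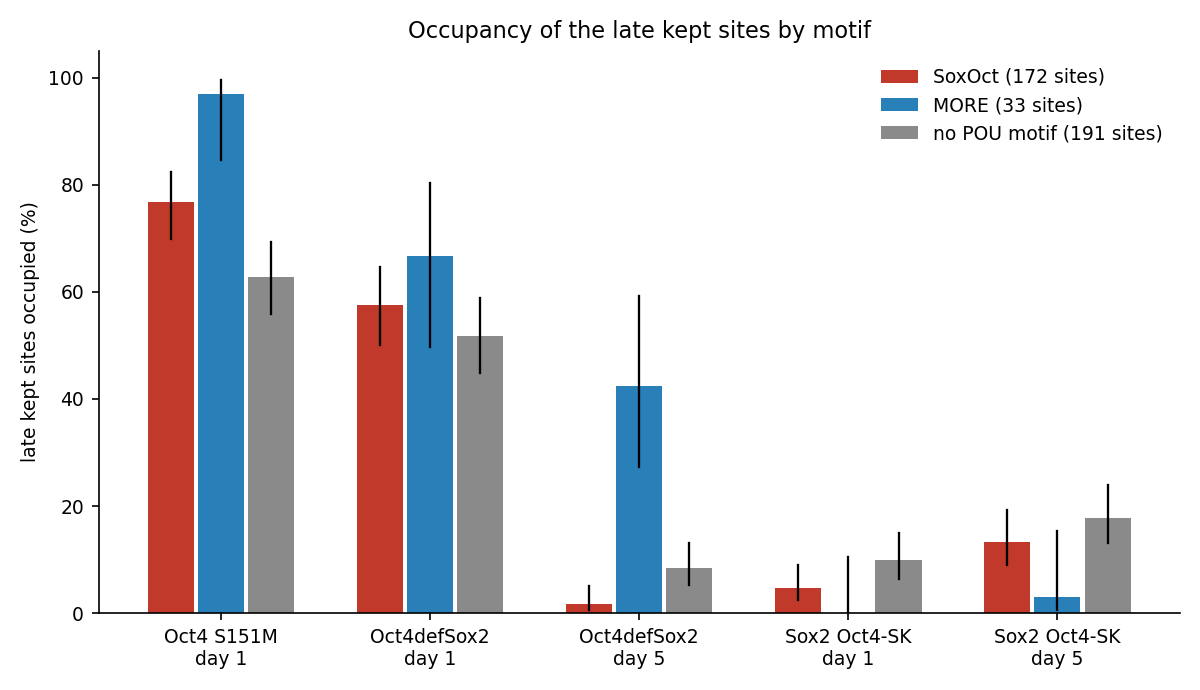
Share of late kept sites occupied (%) in 5 libraries, for the 172 sites with SoxOct, the 33 with MORE and the 191 with no POU element; bars start at 0 and lines are Wilson 95% intervals. Oct4defSox2 at day 5 was found at 42.4% of MORE sites and 1.74% of SoxOct sites, and Sox2 at day 1 had no summit at MORE sites.

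Sox2 was found at more late kept sites at day 5 than at day 1. In Oct4-SK cells it occupied 27 late kept sites at day 1 (6.49%, 4.50 to 9.28, against 14.3% of all merged sites). At day 5 it occupied 58 (13.9%, 10.9 to 17.6, against 6.63% of all merged sites). The alternatives tried gave late kept shares from 0.721% to 9.375% at day 1 and from 6.49% to 17.1% at day 5. Both days were occupied at 14 sites, day 5 alone at 44 and day 1 alone at 13, a paired gain of 7.45 points (3.96 to 11.1). The gain was 4.57 points (1.399 to 7.89) with a sharing distance of 50 bp and 4.24 points (0.0925 to 8.45) with a merging distance of 50 bp. The list itself shrank over these days, from 15222 to 5832 summits. At sites of all 3 days the change was 0.367 points (−2.92 to 3.65), with 21.8% at day 1 and 22.1% at day 5. At day 5 only sites it was −1.24 points (−2.41 to −0.0910) and at day 7 only sites 1.09 points (0.0793 to 2.12). The day 5 share of late kept sites was 9.05 points (5.90 to 12.8) higher than that of day 5 only sites and differed by −8.18 points (−12.4 to −3.63) from that of sites of all 3 days. The latter difference was within counting error with a score of at least 10 (−4.15 points) and with equal list lengths (−2.56 points), and −5.17 points (−8.73 to −1.27) with a sharing distance of 50 bp. The excess over day 5 only sites was 5.04 points (2.97 to 7.86) with equal list lengths.

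Sox2 summits at late kept sites were also more frequent at day 5 than at day 1 with the other cocktails. In Oct6-SK cells Sox2 occupied 2 late kept sites at day 1 (0.481%; 3.53% of all merged sites) and 29 at day 5 (6.97%; 3.32% of all merged sites), a gain of 6.49 points (4.12 to 9.36). In Oct4defSox2-SK cells it occupied 5 at day 1 (1.202%; 3.94% of all merged sites) and 37 at day 5 (8.89%; 6.35% of all merged sites), a gain of 7.69 points (5.17 to 10.7). Their lists went from 3242 to 2673 and from 5794 to 21563 summits, and with equal list lengths the gain was 1.92 points (0.607 to 3.75) in Oct6-SK cells and 0.962 points (−0.198 to 2.51) in Oct4defSox2-SK cells. With a score of at least 10 the gains were 2.06 points (0.107 to 4.73) and 4.94 points (2.26 to 8.50). With a sharing distance of 50 bp the gains were 3.12 points (1.49 to 5.31) in Oct6-SK cells and 4.09 points (1.85 to 6.68) in Oct4defSox2-SK cells, and the day 5 shares 3.37% and 5.05%. Gains of this kind in these 2 cocktails were also found at sites of all 3 days, with 6.23 points (4.15 to 8.46) and 7.09 points (4.76 to 9.53). At day 5 the share in Oct4-SK cells was higher than in Oct6-SK cells by 6.97 points (3.60 to 10.5) and than in Oct4defSox2-SK cells by 5.05 points (1.55 to 8.65). Sox2 at day 5 was found in all 3 cocktails at 6 late kept sites, in 2 at 29, in 1 at 48 and in none at 333. These counts by number of cocktails describe the late kept sites alone, without a share over all merged sites beside them.

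Sox2 summits were not found more often at sites with the composite element. In Oct4-SK cells at day 5 Sox2 occupied 23 of 172 SoxOct sites (13.4%, 9.08 to 19.3), 34 of 191 sites with no POU element (17.8%, 13.03 to 23.8) and 1 of 33 MORE sites. The SoxOct share differed from that of sites with no POU element by −4.43 points, within counting error (−11.8 to 3.16). A single Sox string was present at 20 of the 58 sites with this Sox2 summit (34.5%) and at 51 of the other 358 (14.2%), a difference of 20.2 points (8.61 to 33.5). Such a string can be the left part of a SoxOct match. Among sites with no POU element it was present at 8 of 34 and 19 of 157, a difference of 11.4 points that was within counting error (−1.20 to 28.4). Where present, the Sox2 summits had a median score of 13.6 over the 58 sites, beside 9.36 over the whole list.

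Oct6 M151S had a summit at 13 late kept sites (3.12%, 1.84 to 5.27), against 5.97% of all merged sites. Across the alternatives tried, the late kept share ran from 0% to 5.29%. The share was 8.80% at sites of all 3 days, a difference of −5.68 points (−8.17 to −2.90) that was within counting error with a score of at least 10 (−0.825 points) and without sites that had summits of every antibody (−1.41 points), and −2.46 points with equal list lengths. It was 2.32% at day 5 only sites, a difference of 0.801 points within counting error (−0.657 to 3.01), and 1.66% at day 7 only sites, a difference of 1.47 points (0.0294 to 3.67). This library used another antibody and was called at a looser threshold, with a lowest score of 2.301, and 7 of the 13 summits had a q-value under 0.05. In all, 63 late kept sites (15.1%) had no summit in any of the 10 other libraries, 123 had one in 1, 132 in 2, 60 in 3 and 38 in 4 to 7. No such counts are given for all merged sites, so whether these are usual for Oct4 sites is not known. The 63 held SoxOct at 25 (39.7%) and MORE at none.

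Late kept sites were mostly distal, as were all merged sites. In the GENCODE M21 basic annotation of mm10, 223 centres (53.6%) lay in introns and 178 (42.8%) between genes. For all merged sites these shares were 50.6% and 45.3%. Of the late kept centres, 6 lay in noncoding exons, 5 in coding exons and 4 in UTRs. A transcription start lay within 1 kb at 29 sites (6.97%, 4.90 to 9.83), against 6.69% of all merged sites. That share differed by −5.39 points (−7.88 to −2.27) from that at day 5 only sites, which was no longer past counting error with a score of at least 10 (0.234 points, −3.46 to 4.86), with equal Oct4 lists (−2.52 points, −5.04 to 0.423) or with a promoter distance of 5 kb (−1.66 points, −6.03 to 3.08). From sites of all 3 days it differed by −2.44 points (−5.46 to 0.947), and by 0.660 points (−4.36 to 5.91) with a promoter distance of 5 kb. The nearest start of a coding transcript was a median of 40712 bp away, beside 38426 bp for sites of all 3 days and 51193 bp for all merged sites. It was over 100 kb away at 126 late kept sites. Of the sites within 1 kb of a start, 13 were within 1 kb of a coding start. Named from those after their values were seen were Srrm4, a splicing regulator of neurons, at 145 bp with scores of 15.3 and 39.0 and no other library, and Etv1, an ETS transcription factor, at 157 bp with 20.8 and 12.2 and summits in 3 other libraries.

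The sites were scattered. All 19 autosomes held at least 8, the X chromosome held 3 and the Y chromosome 0. Only 20 sites had another late kept site within 50 kb, as 10 pairs. The 416 sites had 396 different nearest coding genes, 376 of them with 1 site and 20 with 2, and none with 3 or more.

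Late kept sites lay near 2 genes of each pluripotency list and near none of the other listed genes. A late kept site was within 50 kb of a coding start for 413 of 21827 coding genes, or 1.89%. The figure was 2 of 19 naive pluripotency factors (10.5%, Sox2 and Dppa3) and 2 of 27 other pluripotency markers (7.41%, Gdf3 and Jarid2). It was 0 of 20 epithelial genes, 0 of 29 mesenchymal and fibroblast genes and 0 of 26 further POU and Sox family genes. A site of any Oct4 class was within 50 kb of 10 of the 19, 17 of the 27, 10 of the 20, 18 of the 29 and 11 of the 26, and of 37.1% of all coding genes. Sites of all 3 days were near 2 of the 19, 6 of the 27, 1 of the 20, 0 of the 29 and 3 of the 26, and near 868 of all coding genes (3.98%). These lists were chosen with results on these libraries known, and the counts are a description.

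The Sox2 gene, which encodes the partner of Oct4, had a late kept site 3640 bp downstream of its coding start, in an intron of the overlapping transcript Sox2ot. The scores there were 9.80 for Oct4 at day 5 and 8.66 at day 7. Oct4defSox2 scored 9.86 and Oct4 S151M 42.8 at day 1, and the other 8 libraries had no summit within 100 bp. The nearest Oct4 summit at day 1 lay 2913 bp away. Its window, chr3:34653945-34654145 on the plus strand with the SoxOct match in capitals, is printed because it lies at a gene of the reprogramming cocktail.
Sox2 site: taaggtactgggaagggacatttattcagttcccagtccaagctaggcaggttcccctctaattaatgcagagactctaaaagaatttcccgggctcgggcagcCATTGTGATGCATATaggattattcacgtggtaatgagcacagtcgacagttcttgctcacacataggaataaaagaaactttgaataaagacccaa

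Dppa3, which protects the methylation of the maternal genome in the early embryo, and Gdf3, a ligand of the TGF-beta family, shared 1 late kept site. It lay between genes, 1728 bp upstream of the nearest coding start of Dppa3. Oct4 scored 8.10 at day 5 and 36.3 at day 7, and no other library, neither a mutant nor Sox2, had a summit there. The nearest day 1 summit was 16066 bp away. Its window is chr6:122624582-122624782, printed on the plus strand, so the SoxOct match in capitals reads in reverse complement.
Dppa3 site: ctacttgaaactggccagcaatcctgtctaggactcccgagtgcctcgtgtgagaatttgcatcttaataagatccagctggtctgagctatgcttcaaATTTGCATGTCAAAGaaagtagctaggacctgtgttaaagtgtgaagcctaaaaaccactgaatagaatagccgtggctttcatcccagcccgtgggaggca

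Jarid2 encodes a cofactor of the Polycomb repressive complex PRC2. Its site lay 25073 bp upstream of the coding start and scored 20.8 at day 5 and 42.9 at day 7. Oct4 S151M had a weak summit there, with a score of 9.36, and the other 9 libraries had none.

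The 4 highest-ranked late kept sites with SoxOct and no MORE were nearest to Fam209, Supt6 and, for 2 of them, Ebf1. The 2 Ebf1 sites lay in introns of this gene, which encodes a transcription factor of B lymphocytes, 22241 bp apart and 224592 and 246833 bp from the coding start. The first scored 9.53 at day 5 and 81.7 at day 7 and held an exact SoxOct. The second scored 28.9 and 69.1 with 1 mismatch. Oct4defSox2 at day 1 scored 30.9 and 21.7 there and Oct4 S151M 34.9 and 31.7. The site nearest to Supt6, which encodes an elongation factor of RNA polymerase II, lay in an intron of Sdf2. It had the highest day 7 score of all, 95.01, beside 8.10 at day 5. The Fam209 site scored 48.7 and 56.3. None of the 4 had an Oct4defSox2 summit at day 5 or a Sox2 summit in any library.

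The 4 highest-ranked with MORE and no SoxOct were nearest to Cpeb4, Zfp36l1, Cdh5 and Atf1. The site 24847 bp from the start of Cpeb4, which encodes an RNA-binding protein of cytoplasmic polyadenylation, had the highest mean of both scores, with 139.6 at day 5, the highest of that day, and 51.2 at day 7, when 12 late kept sites scored higher. Oct4defSox2 scored 203.4 there at day 1 and 44.2 at day 5, and Oct4 S151M 578.5 with an 88.1-fold enrichment, while Sox2 had no summit. The Zfp36l1 site, 217181 bp from the start of a gene for an mRNA decay factor, scored 68.4 and 33.4. Oct4defSox2 scored 46.0 at day 1 and 20.2 at day 5 there and Oct4 S151M 327.6, and a day 1 Oct4 summit lay 314 bp away. The Cdh5 site, 8095 bp upstream of the coding start of VE-cadherin and in an intron of the transcript Gm29682, scored 21.8 and 48.0, and the Atf1 site, in an intron of this gene of a CREB-family factor, scored 42.0 and 26.7. At both of these Oct4defSox2 had a summit at day 1, with 11.9 and 15.6, and none at day 5.

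The exact MORE of the Cpeb4 site is shown in its window, chr11:31847264-31847464 on the plus strand, since this site had the highest day 5 score.
Cpeb4 site: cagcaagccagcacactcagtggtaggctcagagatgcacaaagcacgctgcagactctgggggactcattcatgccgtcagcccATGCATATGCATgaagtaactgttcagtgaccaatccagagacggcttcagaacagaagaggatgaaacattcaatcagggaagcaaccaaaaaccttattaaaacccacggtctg

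The 3 highest-ranked sites with no POU element were nearest to Irx6, Jak2 and Rapgef1. The Irx6 site, 68610 bp from the start of this Iroquois homeobox gene, scored 61.3 at day 5 and 93.3 at day 7. The site in an intron of Jak2, the kinase of cytokine receptors, scored 48.4 and 57.8, and the Rapgef1 site scored 27.8 and 58.3. All 3 had an Oct4 S151M summit at day 1 (21.5, 15.6 and 92.7) and a Sox2 summit in Oct4-SK cells at day 5 (9.63, 19.3 and 8.41). The best SoxOct alignment had 3 mismatches at Irx6 and Jak2 and 4 at Rapgef1.

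The late kept site occupied in most other libraries was nearest to Prdm1. The next 8 sites tied with summits in 6 libraries, and Cbr4 and Ankrd6 are named from them for their higher mean Oct4 score. The site 258106 bp from the start of Prdm1, a repressor needed for germ cell specification, had summits in 7 of the 10. Sox2 had summits there in 5 libraries, with scores of 51.6 at day 1 and 81.7 at day 5 in Oct4-SK cells, 37.3 at day 5 in Oct6-SK cells, and 17.6 at day 1 and 140.3 at day 5 in Oct4defSox2-SK cells. Oct4 itself scored 11.01 and 11.7, and a day 1 Oct4 summit lay 145 bp away. The Cbr4 site, in an intron of Palld, had summits in 6, among them Sox2 at day 5 in all 3 cocktails (52.8, 12.6 and 68.9). The Ankrd6 site also had 6, and a day 1 Oct4 summit lay 111 bp away, so its absence at day 1 rests on the merging distance. Of the 17 named sites, 14 had no day 1 summit within 1 kb.

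**Figure D5:**
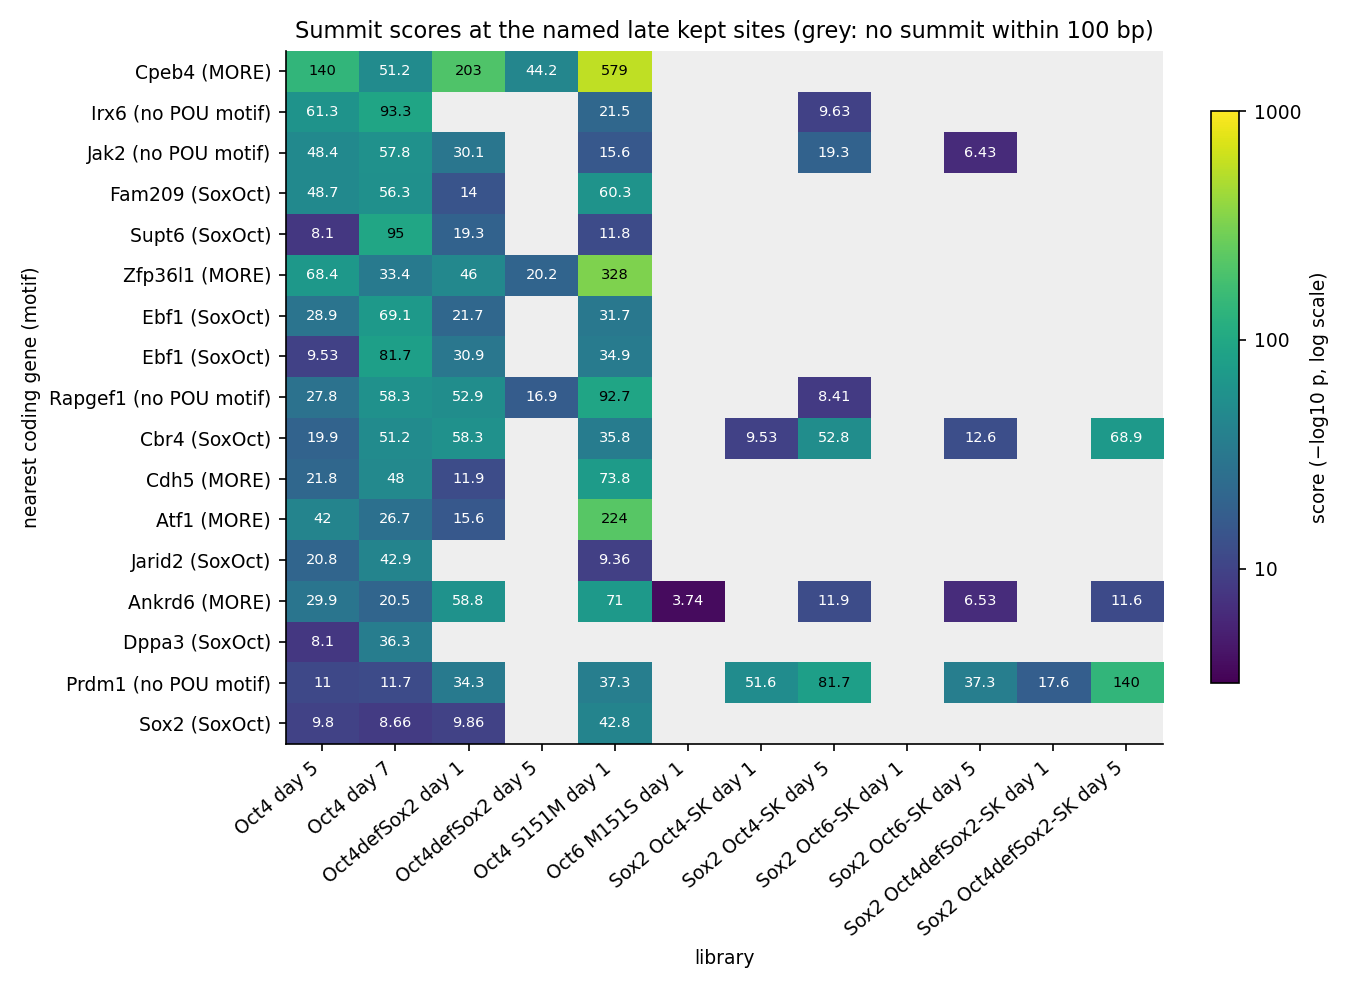
Scores (−log10 p, colour on a logarithmic scale, value printed in each cell) at the 17 named late kept sites, in rows by nearest coding gene and motif, in Oct4 at days 5 and 7 and the other 10 libraries; grey marks no summit within 100 bp. Oct4defSox2 at day 5 is present at 3 of the 17, nearest to Cpeb4, Zfp36l1 and Rapgef1.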

How the data were processed

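ChIP-seq reads were aligned by the authors to mm10 with Bowtie2 2.2.5, filtered and deduplicated with SAMtools, and peaks were called per library with MACS2. The lowest score was 4.00 to 4.12 in 12 lists and 2.301 in that of Oct6 M151S, which was called at a looser threshold. The score in the deposited summit lists is the −log10 p-value of the peak caller. The deposited peak tables of Oct4 S151M and Oct6 M151S also gave fold enrichment, a ratio to local background, and the −log10 q-value. Read depth is not given with the summit lists. Their lengths ran from 1038 to 101170 summits and do not measure depth, so equal list lengths do not correct for it. The 3 input libraries were not used here. For Oct6 M151S the title gives day 1 and another label day 2, and day 1 was used.

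Groups were read from the titles, 1 library each, so no test over replicates was made and no p-value computed. Merging, occupancy and motif windows followed the 100 bp distance of the study. Elements were matched as consensus strings on both strands. SoxOct allowed 2 mismatches, MORE and MORE+1 1, and all others 0. A difference was past counting error when its Newcombe 95% interval (paired form for the same sites) excluded 0. Late kept sites were set against the 3 classes in 72 contrasts, of which 37 were past counting error. The intervals were not corrected for this number, so those that barely exclude 0 are weak. Named sites, by a rule on the mean of both scores, were the 4 highest with SoxOct, the 4 highest with MORE, the 3 highest with no POU element, the 3 in most other libraries and those within 50 kb of listed genes. The members, lists and comparisons were chosen with earlier results of these data known. Sequences came from GRCm38 (RefSeq) and genes from GENCODE M21; 0 summits lay past a chromosome end. Python 3.11.15, numpy 2.4.6, pandas 2.3.3, scipy 1.17.1 and matplotlib 3.10.9 were used, and the functions were tested on simulated data. The alternatives were other sharing, merging, motif and promoter distances, higher score limits, equal list lengths, a stricter day 1 rule, stricter and looser motifs, and dropping sites where each of the 3 antibodies gave a summit.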

Additional observations from a re-analysis of the deposited data

How the results depend on the processing

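Of 16 differences, 7 kept their direction and their side of 0 in all 15 alternatives. Each alternative could change only some of them: a promoter distance, for example, could not change a motif share. The score limit on Oct6 M151S alone could change none of the 16. The count of 15 therefore overstates how often each difference was put to a test. The SoxOct excess over sites of all 3 days, 5.39 points, passed counting error with a merging distance of 200 bp (5.97), equal Oct4 lists (6.53), no day 1 summit within 1 kb (6.30), stricter (5.26) or looser (6.69) motifs and a 50 bp motif window (5.94). With a score of at least 10, the sites numbered 243, the SoxOct excess over day 7 only sites was 1.67 points, the MORE difference from day 5 only sites −7.52, the Sox2 day 5 difference from sites of all 3 days −4.15 and the promoter difference from day 5 only sites 0.234. With equal Oct4 lists the differences from day 5 only sites were −4.00 (MORE) and −2.52 (promoter). With the other 10 lists cut to equal length, the Oct4 S151M difference from day 5 only sites was −0.731, the Sox2 day 5 difference from sites of all 3 days −2.56, and the Oct4defSox2 day 1 difference between MORE and SoxOct 15.3. The MORE difference from day 5 only sites, 0.0976 points, was also below 0, within counting error, with merging distances of 50 bp (−1.15) and 200 bp (−0.366), no day 1 summit within 1 kb (−0.254) and without sites of all 3 antibodies (−0.0898). A stricter motif left a MORE difference from sites of all 3 days of −0.677, and a promoter distance of 5 kb promoter differences of −1.66 from day 5 only sites and 0.660 from sites of all 3 days. The cause of these changes was not tested. No paired analysis was possible because every group has 1 library, so no samples could be paired by replicate. The paired intervals given above pair sites within 2 libraries. With no read counts, sites without a summit may lie just under the calling threshold.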

Other observations

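Of the 20 coding genes that were nearest to 2 late kept sites, Sox2 was one, and it was singled out after its values were seen. Its second site lay 178249 bp from the coding start, held MORE, and had scores of 15.3 at day 5 and 6.87 at day 7. Oct4defSox2 scored 20.3 there at day 1 and 5.37 at day 5, and Oct4 S151M 33.5. The MORE site near Sox2 had an Oct4defSox2 summit at both days, and the SoxOct site at day 1 only.

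The scores took few values: 416 sites had 141 different scores at day 5, of which 11.1 was the commonest with 28 sites, and 159 at day 7.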
